A study of Mus musculus with 7 samples.

Results

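Interferon-stimulated genes are the genes that a cell switches on or raises when interferon binds its receptors. The 31 taken here were fixed by name and were read in 1 single-cell RNA-seq library of the mouse trigeminal ganglion, the cluster of sensory nerve cells that serves the face and teeth. Of the 31, 29 have a row in the matrix of 32285 genes; Mx1 and Mx2, the Mx GTPases, are not analysed here. The ganglion came from wild-type mice at postnatal day 3.5 and carried no treatment that the labels name; the labels do not say how many animals gave cells. The series, which concerns sensory nerve and tooth root growth, also labels 6 bulk libraries of molars, not analysed here.

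Type I interferons signal through Jak kinases to a complex that holds Stat2 and Irf9 and binds a short repeat called the interferon-stimulated response element to start transcription. The products sense foreign RNA, block viral translation or entry, tag proteins with the small modifier Isg15, and include Irf7 and Usp18, which feed back on the pathway. Many are low at rest and rise strongly with interferon, while some, such as Ifitm3 and Bst2, are made at rest in certain cell types. In sensory ganglia these genes are best known from herpes virus infection.

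Of the 31 genes, 22 have a promoter window (250 bases before to 50 after a start site) in the RefSeq table of GRCm38.p6. The core of the response element, GAAA then any 2 bases then GAAA, was searched on both strands, where a run of 3 or more GAAA units gives overlapping matches. It was found for 13 of the 22 genes (59.1%): Bst2, Ddx58, Gbp2, Gbp3, Ifih1, Ifit1, Ifit3, Ifitm3, Isg15, Oas1a, Oas3, Rsad2 and Stat2. Over all 27025 genes with a window the share was 3.99%. A longer form, with a C added after the second GAAA, was found for 11 of the 22 genes against 0.944% of all genes. These genes are known targets of the pathway, so the share is a description of the list. Dhx58, Zbp1, Oas2, Mx1, Mx2, Usp18, Parp9, Parp14 and Rtp4 have no window.

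The 250 bases upstream of the start site are shown for 5 genes on which the results below turn: Rsad2, Isg15 and Isg20 for the erythroid cells, Bst2 for macrophages and vessels, and Xaf1 for the Schwann lineage. Each reads 5′ to 3′ on the gene's own strand, with matches to the motif in capitals. The Rsad2 window is chr12:26456453-26456702 on the minus strand and holds 1 match, on the opposite strand, from 120 bases upstream. The Isg15 window is chr4:156200819-156201068 on the minus strand, with 3 overlapping matches that begin 78, 72 and 66 bases upstream. The Bst2 window is chr8:71537473-71537722 on the minus strand, with 2 overlapping matches from 130 and 124 bases upstream. The Isg20 window is chr7:78913174-78913423 on the plus strand, the first of 3 start sites, none of whose windows holds a match. The Xaf1 window is chr11:72301379-72301628 on the plus strand and holds no match.
Rsad2: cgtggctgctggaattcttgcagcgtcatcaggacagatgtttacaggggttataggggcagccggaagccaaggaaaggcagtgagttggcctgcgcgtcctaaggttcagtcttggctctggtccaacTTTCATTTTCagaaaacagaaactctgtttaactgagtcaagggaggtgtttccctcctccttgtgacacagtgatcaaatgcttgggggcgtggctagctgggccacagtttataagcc
Isg15: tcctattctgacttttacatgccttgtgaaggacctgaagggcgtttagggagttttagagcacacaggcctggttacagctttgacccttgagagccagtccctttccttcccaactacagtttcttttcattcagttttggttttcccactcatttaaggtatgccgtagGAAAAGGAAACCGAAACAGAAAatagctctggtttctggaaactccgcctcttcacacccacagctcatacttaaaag
Bst2: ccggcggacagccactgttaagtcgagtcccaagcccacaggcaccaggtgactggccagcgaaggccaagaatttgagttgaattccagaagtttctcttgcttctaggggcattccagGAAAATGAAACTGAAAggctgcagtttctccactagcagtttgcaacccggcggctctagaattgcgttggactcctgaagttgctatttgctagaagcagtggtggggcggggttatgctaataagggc
Isg20: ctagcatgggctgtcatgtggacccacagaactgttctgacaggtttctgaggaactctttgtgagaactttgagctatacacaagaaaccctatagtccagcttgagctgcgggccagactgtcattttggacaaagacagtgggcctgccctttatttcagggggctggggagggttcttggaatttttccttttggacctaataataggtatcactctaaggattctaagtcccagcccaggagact
Xaf1: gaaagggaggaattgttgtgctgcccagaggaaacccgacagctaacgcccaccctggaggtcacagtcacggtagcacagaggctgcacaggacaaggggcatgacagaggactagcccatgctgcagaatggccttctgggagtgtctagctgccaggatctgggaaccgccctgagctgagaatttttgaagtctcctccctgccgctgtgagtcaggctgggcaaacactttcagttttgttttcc

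The library held 13065 barcodes, all different, of which 9427 had at least 1000 UMIs, at least 500 genes and no more than 20% mitochondrial UMIs. A UMI is 1 counted RNA molecule. These cells had a median of 10861 UMIs and 3651 genes. A score over marker genes placed 7950 of them in 1 class, 845 of these near a limit of the score, and left 1477 in none. A class name below means cells that resemble that type by its markers. There were 3113 Schwann lineage cells, 1985 connective fibroblasts, 851 neurons, 433 erythroid cells, 357 macrophages, 351 satellite glia, 256 endothelial cells, 144 cartilage or bone cells, 126 neutrophils, 89 B lineage cells and 81 mural cells, with smaller classes beside them. The immune class pools 639 cells, and the vessel class pools the endothelial and mural cells. All 9 neuronal markers and, in each Schwann stage, all 7 Schwann markers stood above 10 UMIs per 1000000 in their own class. The same lists placed the cells, so this describes the classes and cannot test them or the ganglion label. Markers of central glia placed 83 cells.

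Levels are UMIs of a gene per 1000000 UMIs of the class (CPM, counts scaled to that total), with exact Poisson 95% intervals. There is 1 library, so nothing was tested across animals and no p-value is given. All intervals cover counting error only, of cells that share 1 preparation. A gene is called higher or lower in a class where it has at least 20 UMIs over both sides, a CPM ratio to the other gated cells of at least 2 or at most 0.5, and an exact binomial interval of the ratio that leaves out 1. On this rule 28 of the 29 genes could be called. Ifit3, an IFIT protein, had 7 UMIs in all gated cells. The erythroid class held 3154 Rsad2, 3243 Isg20 and 1148 Isg15 UMIs, against 918, 795 and 1981 in all other gated cells. Lower calls of these genes in any other class are therefore read against a level that includes the erythroid cells. Over the 15 classes of at least 50 cells, 13 genes stood highest in endothelial cells, 8 in macrophages, 3 in erythroid cells, 2 in mural cells, and 1 each in immature Schwann cells, proliferating Schwann cells and neutrophils. For 10 genes the interval of the highest class lay above that of the next class, and for 19 both intervals overlapped. Ifit3, counted among the mural genes, had only 2 UMIs there. The highest class was not counted over all genes, so these numbers describe the list and cannot be read as results about it.

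**Figure D1:**
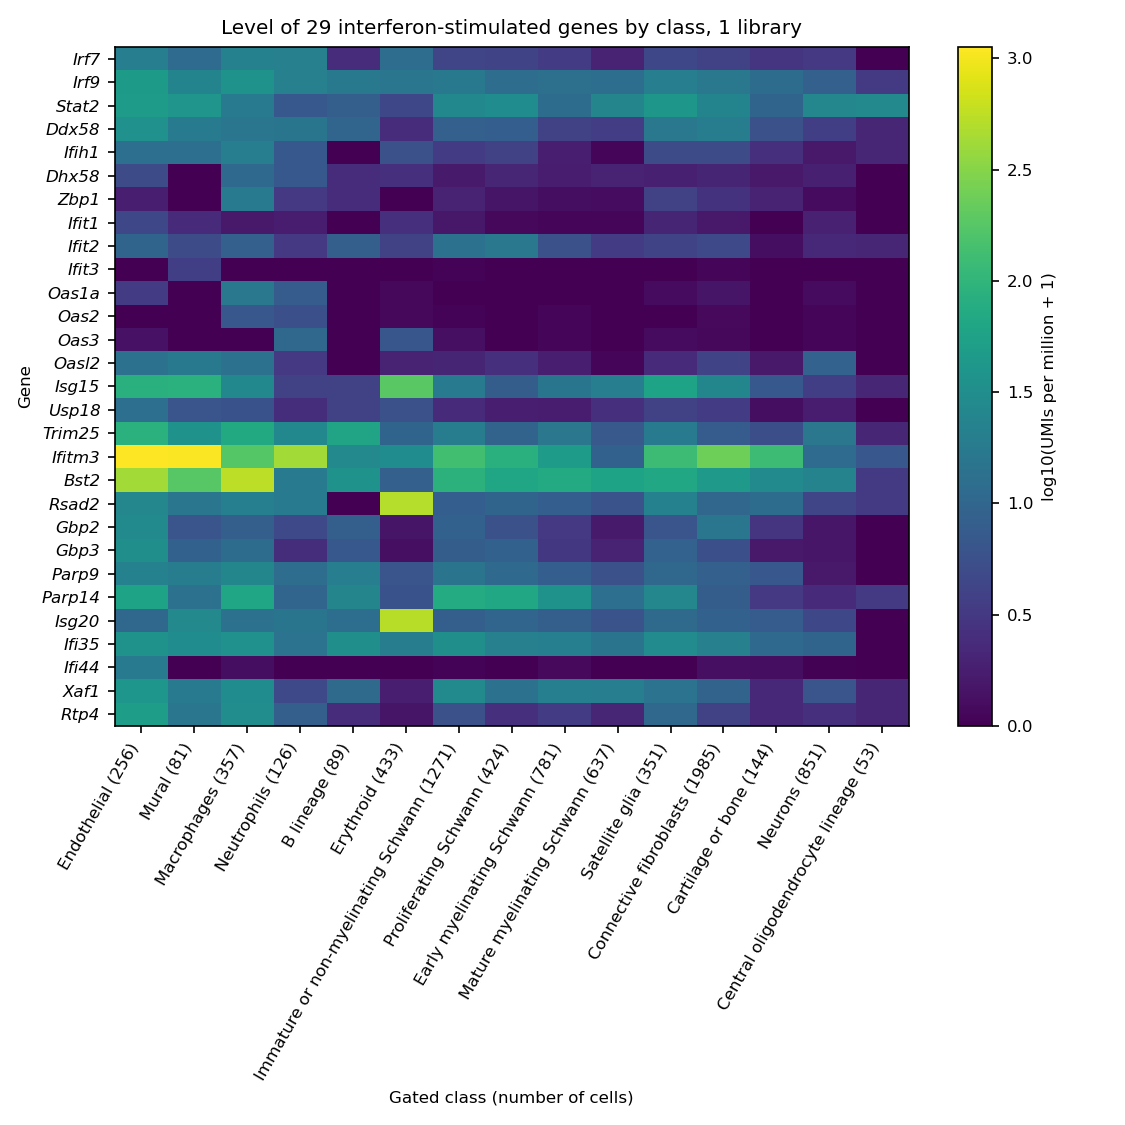
Level of each of the 29 measured genes (rows) in the 15 classes of at least 50 cells (columns, with the number of cells), as log10 of CPM plus 1. Ifitm3 is brightest in endothelial (1123) and mural (1086) cells, Rsad2 and Isg20 in erythroid cells (514 and 528), and the neuron column is dark for most genes.

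The cells of blood vessels held these genes at the most widespread high level. In the vessel class 20 of 28 genes were called higher than in the other gated cells and 1, Isg20, lower; over all 19607 genes 11.7% were called higher and 17.1% lower. The median log2 ratio was 1.53 for the 28 genes and -0.11 for all genes. The lower call of Isg20 was made against cells that include the erythroid class. Vessel cells had Isg20 at 13.4 CPM, above the 6.80 of all gated cells outside the erythroid class. Taken alone, endothelial cells had 21 genes called higher (all genes 11.2%), and mural cells, the contractile cells around small vessels, had 10 (all genes 7.92%). Summed over the 29 genes, endothelial cells stood at 2238 CPM (2180 to 2297), mural cells at 1668 and neurons at 127.

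A pair of membrane proteins carried much of that sum. Ifitm3, which blocks virus entry at endosomes, had 1123 CPM in endothelial and 1086 CPM in mural cells, against 240.5 in connective fibroblasts and 10.8 in neurons. The vessel level was 10.8-fold that of the other gated cells (10.4 to 11.2). After thinning every cell to 5000 UMIs, 158 of 165 endothelial cells (95.8%) had an Ifitm3 UMI, as did 21 of 521 neurons (4.03%). Bst2 (tetherin), which holds budding virus on the cell surface, had 426 CPM in endothelial and 182 in mural cells, a ratio of 2.35 (1.96 to 2.82) between the 2 vessel classes.

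Ifi44, an interferon-induced cytoplasmic protein, had 42 UMIs in 30 endothelial cells, or 16.6 CPM. The cells outside the vessel class held 16 UMIs together, the next class, connective fibroblasts, stood at 0.348 CPM, and mural cells had none, which with 3 counts as the floor allows up to 3.97 CPM. Rtp4, a chaperone of membrane receptors, had 49.8 CPM in endothelial cells, 30.3 in macrophages and 14.6 in mural cells. The guanylate-binding proteins, GTPases that attack membranes around microbes, were also higher: Gbp3 had 32.0 CPM in endothelial cells against 10.9 in macrophages, and Gbp2 had 26.9 against 14.6 in connective fibroblasts. Gbp2 and Gbp3 belong to a family of similar genes between which reads may be split, and Rtp4 overlaps another gene on its strand, so these counts are uncertain. Between endothelial and mural cells 9 of 22 genes were called higher in the former (all genes 12.6%) and 1, Isg20, in the latter (all genes 10.5%). The other 12 were not called, among them Ifitm3, Isg15, Ifih1 (11.9 CPM in both) and Oasl2 (13.1 and 15.9 CPM).

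Among signal factors, Irf7, the factor that amplifies the interferon response, was 4.40-fold higher in vessel cells (3.28 to 5.82). Irf9, the DNA-binding part of the Stat complex, was 3.06-fold higher. Irf9 overlaps Rnf31 on its strand, so its counts, here and in the other classes, are uncertain. Among sensors, Ddx58 (RIG-I) had 34.0 CPM in endothelial cells and Ifih1 (MDA5) 11.9 CPM in both vessel classes. In the Isg15 system, Isg15 itself had 85.4 CPM in endothelial and 87.4 in mural cells, Usp18, which removes it from proteins, had 11.9 and 5.30, and Trim25, a ubiquitin ligase that acts on RIG-I, had 88.2 and 35.8. The calls held in all 10 alternatives run for 14 of the 20 genes and were lost in at least 1 for Dhx58, Irf9, Parp14, Parp9, Stat2 and Xaf1. Of the 8 dissociation stress genes, 5 were also called higher in vessel cells (all genes 11.7%). Endothelial cells alone had 2 called higher (all genes 11.2%), mural cells 7 (all genes 7.92%) and connective tissue 6 (all genes 16.0%). The part of dissociation stress in the result was not tested. The 7 macrophage markers summed to 32.0 CPM in endothelial cells against 13695 in macrophages.

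**Figure D2:**
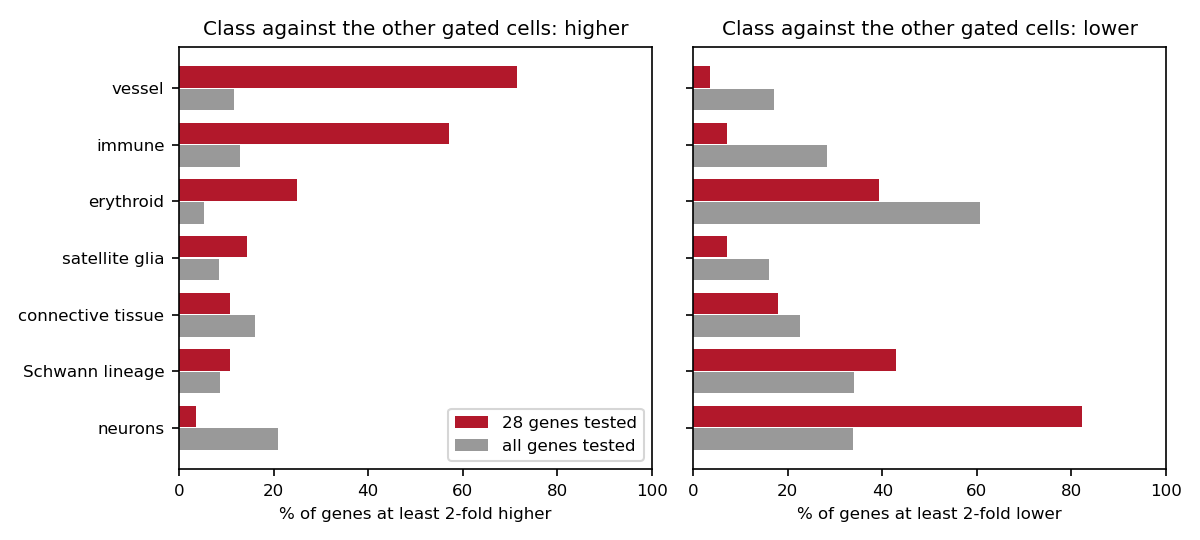
Share of genes called at least 2-fold higher (left) or lower (right) in each class against the other gated cells, for the 28 interferon-stimulated genes (red) and all 19607 genes (grey), in percent. For higher calls red exceeds grey most in vessel cells (71.4% against 11.7%), and also in immune, erythroid, satellite glial (14.3% against 8.56%) and Schwann (10.7% against 8.74%) cells. For lower calls it does so in neurons (82.1% against 33.8%) and Schwann cells (42.9% against 34.1%).

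The immune cells of the ganglion also held many of these genes above the other cells. In the immune class 16 of 28 genes were called higher (all genes 13%) and 2, Rsad2 and Isg20, lower (all genes 28.4%). The median log2 ratio was 1.02 against -0.31 for all genes. Both lower calls were made against cells that include the erythroid class. Rsad2 and Isg20 had 15.7 and 13.9 CPM in immune cells, above the 7.85 and 6.80 of all gated cells outside the erythroid class. Oas1a and Oas2, synthetases of the 2-5A messenger that activates RNA decay, had the highest ratios: Oas1a had 67 of its 96 UMIs in immune cells, a 45.3-fold ratio (28.9 to 72.7), and Oas2 had 28 of 41 UMIs, a 42.3-fold ratio (21.2 to 88.9). Oas1a has near-identical copies, so its counts are uncertain. Oas3, of the same family, had 20 of its 69 UMIs in immune cells and 34 in erythroid cells. Zbp1, a sensor of left-handed nucleic acid that can trigger cell death, was 17.7-fold higher (13.1 to 24.0), and Dhx58 (LGP2), the helper of RIG-I and MDA5, was 9.04-fold higher.

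Within the immune class, macrophages had Bst2 at 565 CPM, its highest class level, and 230 of 270 thinned macrophages (85.2%) had a Bst2 UMI. Macrophages also had Zbp1 at 17.0, Oas1a at 15.5, Ifih1 at 19.1, Parp14 at 63.1 and Trim25 at 71.0 CPM, and Oas3 at 0. Neutrophils differed: they had Ifitm3 at 425, Irf7 at 20.2 and Oas3 at 9.72 CPM, but Bst2 at 17.2, Isg15 at 2.99 and Parp14 at 8.97 CPM. Against the other gated cells 16 genes were called higher in macrophages (all genes 11.2%), and 6 were higher and 7 lower in neutrophils (all genes 7.69% and 32.1%). The 28 monocytes summed to 2809 CPM, with Ifitm3 at 1941, Trim25 at 241, Irf7 at 64.2 and Zbp1 at 61.1 CPM, though this small class also held neutrophil markers at 11284 CPM. In 89 B lineage cells the sum was 283 CPM.

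The summed level in immune cells was 2.58-fold that of the other gated cells (2.51 to 2.65). It was 1.98-fold with classes from named clusters, 1.77-fold without Ifitm3 and Bst2, and 1.50-fold as UMIs per cell, each under the 2-fold limit. Of the 16 higher calls, 10 held in all 10 alternatives: Bst2, Dhx58, Ifih1, Irf7, Oas1a, Oas2, Oas3, Rtp4, Trim25 and Zbp1.

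Erythroid cells stood apart with 3 genes. Rsad2 (viperin), an enzyme that makes a chain-ending nucleotide, had 3154 of its 4072 gated UMIs in these 433 cells, or 514 CPM (496 to 532), and the next class, endothelial cells, had 24.9. Isg20, an exonuclease that degrades RNA, had 528 CPM (510 to 547) and at most 26.5, in mural cells, among the other classes of at least 50 cells. Isg15 had 187 CPM (176 to 198), above mural cells at 87.4. In all, 7 of 28 genes were called higher (all genes 5.25%), the others being Irf7, Ifit1, Usp18 and Oas3, and 11 were called lower (all genes 60.6%). The calls of Irf7, Ifit1 and Usp18 were lost in at least 1 of the 10 alternatives, and those of Oas3, Rsad2, Isg20 and Isg15 held in all. Xaf1, Gbp2, Gbp3, Bst2 and Rtp4 each stood between 0.0649 and 0.109 of the level of the other cells.

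These 3 genes differed in how they spread over the erythroid cells. Haemoglobin genes took 46.3% of erythroid UMIs, and the CPM is taken over a total that includes them. After thinning to 5000 UMIs, Isg20 was found in 367 of 404 erythroid cells (90.8%), Rsad2 in 258 (63.9%) and Isg15 in 95 (23.5%). In the 521 thinned neurons the shares were 2.50%, 1.92% and 0.768%. Before thinning these neurons had a median of 75015 UMIs and the 404 erythroid cells 11572. The variance of the thinned counts over their mean, which is near 1 for counts spread evenly over cells, was 1.45 for Isg20, 5.08 for Rsad2 and 19.0 for Isg15. For Isg15 the top cell held 119 UMIs and the top 5 cells 29.8% of all its erythroid UMIs.

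Dividing cells, those with a proliferation score of at least 0.3, were 201 of the 433, and haemoglobin took 27.7% of their UMIs against 78.8% in the 232 others. Rsad2 had 110 CPM in dividing and 1217 CPM in non-dividing cells, an 11.0-fold ratio (9.95 to 12.2), and 2.14 against 11.7 UMIs per cell. Isg20 had 465 and 638 CPM, a 1.37-fold ratio, but 9.03 and 6.16 UMIs per cell, so its direction depends on the scale. Isg15 had 67.4 and 395 CPM. Of 15 genes that could be called, Rsad2 and Isg15 were higher in non-dividing cells (all genes 1.55%) and 8 were lower (all genes 74.5%), including Ifitm3, Trim25, Usp18 and Irf9. Across the 433 cells, which share a library and differ in depth and haemoglobin content, the Spearman correlation with the haemoglobin share was 0.657 for Rsad2, 0.325 for Isg20 and 0.238 for Isg15, and that of Rsad2 with Isg20 was 0.179.

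**Figure D3:**
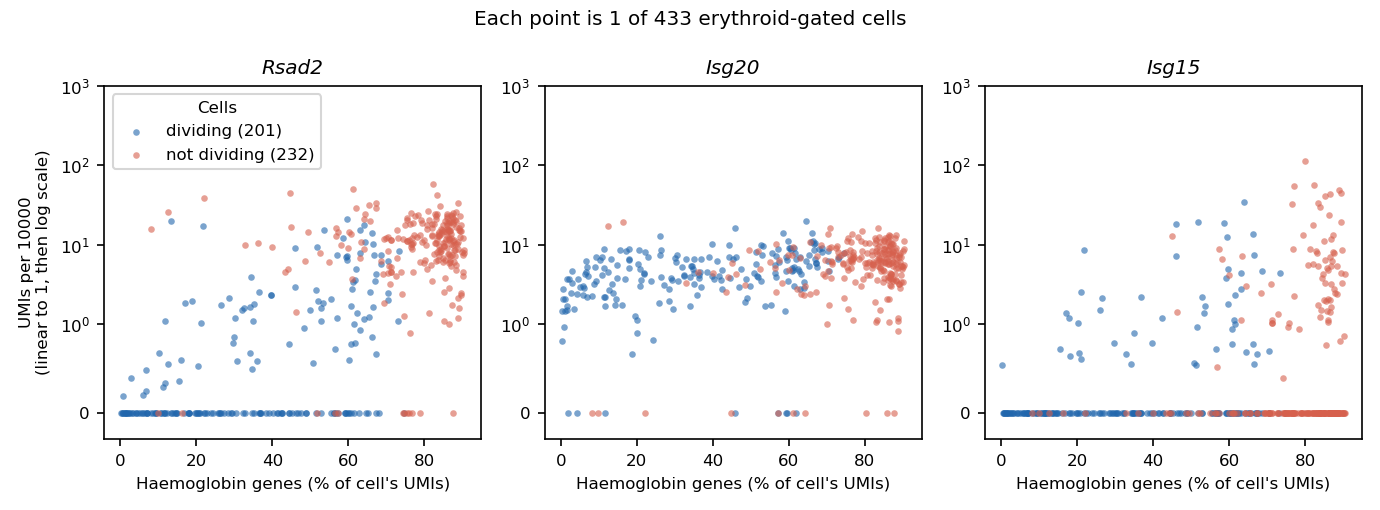
Rsad2, Isg20 and Isg15 UMIs per 10000 UMIs of the cell (vertical axis, linear to 1 and then logarithmic) against the share of haemoglobin UMIs (horizontal axis, percent) in the 433 erythroid cells, dividing (blue, 201) or not (red, 232). Rsad2 has a median of 0 in dividing and 11.1 in other cells, Isg20 is present across the range (medians 4.48 and 6.13), and Isg15 is absent from most cells of both kinds.

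Other classes also held some Rsad2. Outside the erythroid class 44 of 7517 cells had 5 or more Rsad2 UMIs and held 51.7% of the 918 UMIs there. Of these 44 cells, 40 also had 5 or more UMIs of the 7 erythroid markers, against 179 (2.38%) of all 7517. In endothelial cells Rsad2 stood at 4.85% of its erythroid level, beside 2.25% for Alas2 and 3.1% for Hba-a1, which make haem and haemoglobin, and 0.137% for Slc4a1, a protein of the red cell membrane. The part of red cell RNA in these levels was not tested.

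Schwann cells are the glia of peripheral nerve. In the lineage as a whole 3 of 28 genes (10.7%) were called higher (all genes 8.74%) and 12 (42.9%) lower (all genes 34.1%), shares near those of all genes. The higher genes were Parp14, an ADP-ribosyltransferase, 5.30-fold (4.87 to 5.76), Ifit2, an IFIT protein that binds RNA, 3.14-fold (2.65 to 3.73), and Xaf1, a partner of an apoptosis inhibitor, 2.51-fold (2.27 to 2.79). The 12 lower genes were Ifi44, Ifih1, Ifit1, Ifitm3, Isg15, Isg20, Oas1a, Oas2, Oas3, Oasl2, Rsad2 and Zbp1. Their calls held in all 10 alternatives, but those of Isg15, Isg20 and Rsad2 were made against cells that include the erythroid class. Isg20 and Isg15 had 7.11 and 14.8 CPM in the lineage, near the 6.80 and 16.9 of all gated cells outside the erythroid class. Rsad2 ran from 5.11 CPM in mature to 8.52 in proliferating Schwann cells, against 7.85 in all gated cells outside the erythroid class. Oas1a had no UMI in the 3113 cells and 96 in the others. Among the higher genes Parp14 held in all 10 alternatives, and Ifit2 and Xaf1 were lost in at least 1. Xaf1 stood at 20.9 CPM in the lineage, below endothelial cells at 39.6 and macrophages at 29.1.

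The genes also ran down from immature to mature Schwann stages, which are ranges of a myelin score with 601 cells near a limit. Parp14 had 75.1 CPM (70.2 to 80.2) in 1271 immature or non-myelinating cells, 35.7 in 781 early myelinating cells and 11.9 (9.59 to 14.6) in 637 mature myelinating cells. The 424 proliferating cells stood at 65.0 CPM. Ifitm3 ran from 134 through 46.5 to 7.80 CPM over the same 3 stages, a 17.2-fold range (13.3 to 22.5). Ifit2 ran from 12.7 through 4.74 to 2.43 CPM, and Gbp2 from 7.75 through 2.22 to 0.639 CPM.

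Between immature and mature cells 12 of 20 genes were called higher in the immature stage (all genes 17.3%) and 0 lower (all genes 5.64%), with a median log2 ratio of 1.22 against 0.29 for all genes. The other 8 genes included Stat2 (25.7 and 23.1 CPM), Irf9, Isg15 (16.4 and 19.2), Bst2 and Xaf1 (27.2 and 19.4), none of which was called between these 2 end stages. Stat2, the activating subunit of the complex, stood at 10.9 CPM in the early stage, below both others. Between early and mature cells 5 of 19 genes were called higher (all genes 7.49%) and Stat2 lower (all genes 3.86%). Proliferating cells had Isg15, Trim25, Xaf1 and Rtp4 called lower than immature cells, 4 of 21 genes (all genes 6.39%), and 0 called higher (all genes 5.34%). Schwann markers were 59147 CPM in mature and 5083 CPM in immature cells, so a larger share of the mature cells' UMIs goes to myelin genes; its part in these ratios was not tested.

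**Figure D4:**
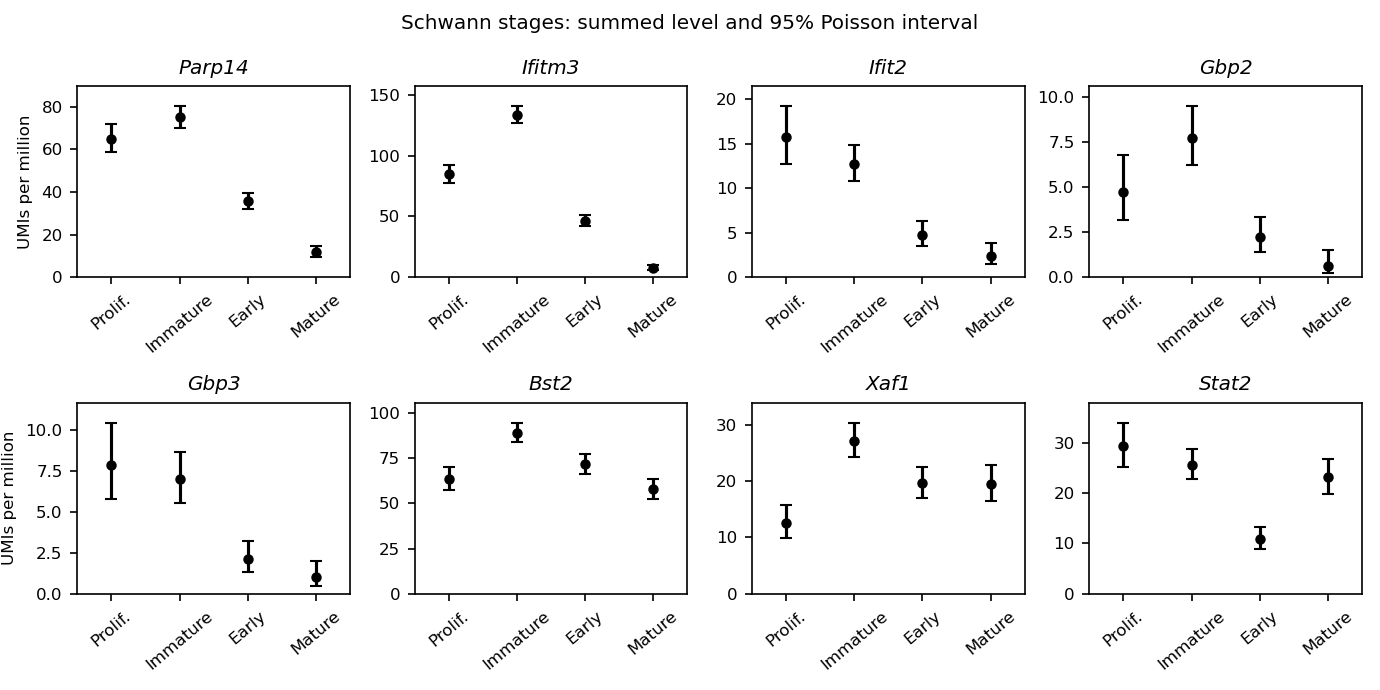
Level in CPM (vertical axis, from 0) of 8 genes in proliferating, immature or non-myelinating, early and mature myelinating Schwann cells (horizontal axis). Points are summed levels and bars 95% Poisson intervals; Parp14, Ifitm3, Ifit2, Gbp2 and Gbp3 are lowest in mature cells, whereas Stat2 is lowest in early cells at 10.9.

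Satellite glia, which wrap the neuronal cell bodies, and connective fibroblasts stood near the middle. In satellite glia 4 of 28 genes were called higher (all genes 8.56%) and 2 lower (all genes 16.1%). The higher genes were Isg15 at 58.2 CPM, 2.41-fold (2.12 to 2.73), Gbp3, Rtp4 and Zbp1, all between 2.14-fold and 2.41-fold. None of the 4 held when the other classes were weighted equally. Against the Schwann lineage alone 7 of 23 genes were called higher in satellite glia (all genes 16.7%), and Ifit2 was lower (all genes 5.82%). Among the higher genes were Isg15, 3.93-fold (3.38 to 4.55), Ddx58, 3.02-fold, and Rtp4, 3.38-fold. Rsad2 was another, 2.98-fold, but 69.4% of its satellite glial UMIs lay in 6 cells. All 6 had 5 or more UMIs of the erythroid markers. In connective tissue, fibroblasts with cartilage or bone cells, 3 genes were called higher (all genes 16.0%) and 5 lower (all genes 22.5%). Gbp2 was 3.86-fold (3.32 to 4.49), Ddx58 2.92-fold and Ifitm3 2.27-fold higher, and Parp14 was lower at 6.44 CPM. None of these 3 higher calls held with equal weights.

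Neurons held most of these genes at a low level. In the 851 cells 23 of 28 genes were called lower (all genes 33.8%) and 1 higher (all genes 20.9%), with a median log2 ratio of -1.29 against -0.20 for all genes. Parp14 stood at 1.36 CPM in neurons and 28.8 in the other gated cells, Ifitm3 at 10.8 and 181, Isg15 at 2.69 and 35.1, and Gbp2 at 0.544 and 7.93. Stat2 (24.9 and 21.7 CPM) and Trim25 (15.3 and 16.8) did not follow. The depth of these barcodes was uneven: 373 of the 851 had at least 20000 UMIs, with a median of 96013, and the other 478 had a median of 2603. As UMIs per cell only 9 genes were called lower, and the summed ratio moved from 0.220 to 0.780. The share of all genes was not counted on that scale. The 9 genes lower in all 10 alternatives were Gbp2, Gbp3, Ifitm3, Isg15, Isg20, Parp14, Parp9, Rsad2 and Zbp1. All 8 dissociation stress genes were also called lower in neurons (all genes 33.8%), as they were in erythroid cells (all genes 60.6%). The part of dissociation stress in the neuron result was not tested.

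Oasl2, a synthetase-like protein, was the gene called higher in neurons. It had 295 UMIs and 8.03 CPM (7.14 to 9.0) against 2.61 in the other cells. Its level in vessel cells, 13.7 CPM, was higher still, and the call was lost with the other classes weighted equally. Within the deeper neurons Oasl2 was uneven. A cluster of 145 such cells had 14.5 CPM (12.5 to 16.8) and another of 192 had 3.61 CPM (2.83 to 4.54). Ifi35, a partner of signalling proteins, followed with 14.2 and 3.66 CPM, while Trim25 had 9.79 and 20.2 and Stat2 24.3 and 25.8 CPM. The cluster high in Oasl2 also held the peptide genes Tac1 at 2508 and Calca at 2123 CPM, against 137 and 412 in the other. The neurofilament gene Nefm had 2414 against 133 CPM. Split by cell, 33 deeper neurons had 3 or more Oasl2 UMIs and 246 had none. Tac1 had 4495 and 243 CPM in these groups and Calca 4219 and 227. Nefm did not follow, at 965 and 1184 CPM. These neuron genes were chosen after their values were seen, and clusters were made from the same counts, so this is a description.

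Genes upstream of the list were read from lists fixed by name. Few UMIs of the interferons themselves were counted, and 0 of 11 ligands reached 20 UMIs. Ifnz had the most, 12 spread over several classes, and Ifnb1 had 4, all in macrophages. Ifng had 5, all in the 13 T or NK cells, which is 67.5 CPM in that small class. Such totals cannot show that cell types rare in this library make no interferon. Of 6 receptors, 5 were called higher in immune cells (all genes 13%) and 3 in vessel cells (all genes 11.7%), and none were called lower there. In erythroid cells 4 were called lower (all genes 60.6%), in neurons 3 (all genes 33.8%), and in the Schwann lineage and connective tissue 1 each, Ifnlr1; satellite glia had no call. Ifnar1, a chain of the type I receptor, had 130 CPM in endothelial cells, 109 in macrophages, 31.8 in neurons and 7.98 in erythroid cells, and Ifnar2, the other chain, had 170, 236, 31.7 and 66.1. Ifnlr1, a chain of the type III receptor, had 47.9 CPM in neutrophils and at most 1.46 in the other classes of at least 50 cells.

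A further list of interferon-stimulated genes held 44 that could be called. In immune cells 28 were higher (all genes 13%) and 2 lower (all genes 28.4%), and in vessel cells 25 were higher (all genes 11.7%) and 4 lower (all genes 17.1%). In connective tissue 13 were higher (all genes 16.0%) and 10 lower (all genes 22.5%). Neurons had 3 higher (all genes 20.9%) and 33 lower (all genes 33.8%), the Schwann lineage 2 higher (all genes 8.74%) and 28 lower (all genes 34.1%), and satellite glia 2 higher (all genes 8.56%) and 18 lower (all genes 16.1%). In erythroid cells 2 were higher (all genes 5.25%) and 27 lower (all genes 60.6%), the latter near the share of all genes. Cxcl10, a chemokine, was called higher in the Schwann lineage, at 364 CPM in the immature, 440 in the proliferating and 26.7 in the mature stage. Cmpk2, a nucleotide kinase, was higher in neurons, at 20.1 CPM, and had 16.3 in erythroid cells. Of 10 antigen presentation genes, 9 were called higher in immune cells, 8 in vessel cells, 2 in satellite glia and 1 each in connective tissue and erythroid cells, to be set against the all-gene shares given for the further list. Lower calls numbered 7 in neurons, 7 in erythroid cells, 5 in the Schwann lineage and 1 each in satellite glia and connective tissue. B2m, the light chain of the class I molecule, had 1011 CPM in macrophages, 389 in endothelial cells and 42.9 in neurons.

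Single cells seldom held several strongly inducible genes at once. Of the 18 genes named as low at rest, 16 were measured, and in cells thinned to 5000 UMIs 114 of 6344 (1.80%, exact interval 1.48 to 2.15) had 3 or more of them. The share was 27 of 165 endothelial cells (16.4%, 11.1 to 22.9), 20 of 270 macrophages (7.41%, 4.58 to 11.2), 20 of 404 erythroid cells (4.95%), 15 of 1071 immature Schwann cells (1.40%), 7 of 1533 connective fibroblasts (0.457%) and 1 of 521 neurons (0.192%). The 16 genes include Rsad2 and Isg15, which stood highest in erythroid cells. All 16 summed to 731 CPM in erythroid, 280 in endothelial cells and 61.6 in fibroblasts. Without Rsad2 and Isg15 the sums were 30.3, 170 and 28.4 CPM. In 5 monocytes of 28 (17.9%, 6.06 to 36.9) 3 or more were found. None were found in 140 cartilage or bone cells, 37 B lineage cells and 30 central oligodendrocyte lineage cells, which by the exact interval allows up to 2.60%, 9.49% and 11.6%. Without thinning 430 of 7950 cells (5.41%) had 3 or more. Thinning left out 1606 cells under 5000 UMIs, 330 of them neurons and 91 endothelial.

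**Figure D5:**
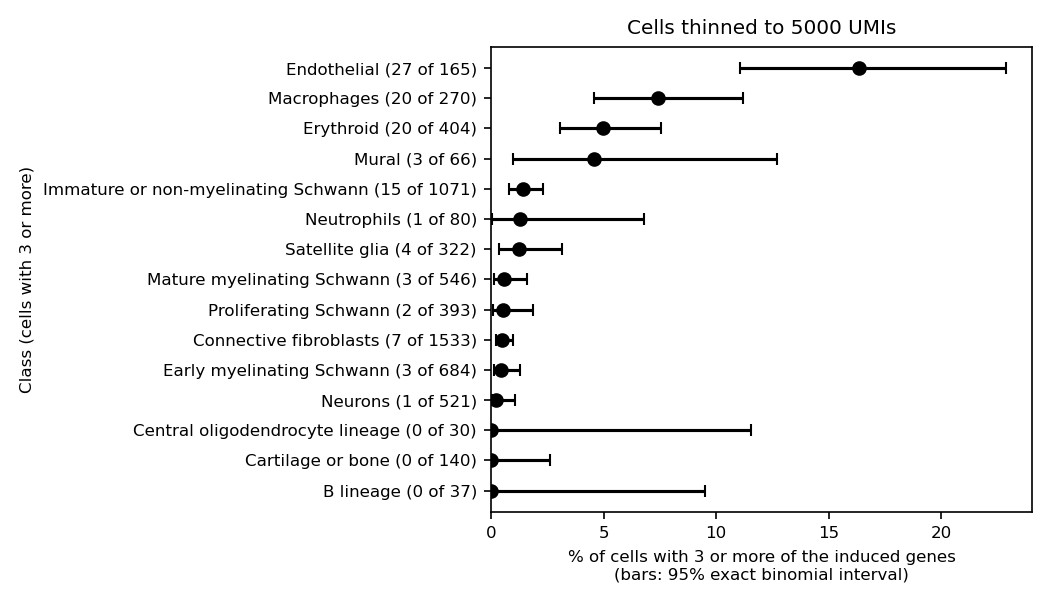
Share of cells with 3 or more of 16 strongly inducible genes (horizontal axis, percent) by class (vertical axis, with counts), in cells thinned to 5000 UMIs; bars are 95% exact binomial intervals. Among these classes of at least 50 cells before thinning, endothelial cells stand highest at 16.4%, above erythroid cells at 4.95% and neurons at 0.192%, while B lineage, cartilage or bone and central oligodendrocyte cells have none.

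The inducible genes kept company in part. Among thinned cells, 46 of 138 with an Irf7 UMI (33.3%) also had Isg15, against 475 of 6206 without (7.65%). For Usp18 the shares were 28 of 76 (36.8%) and 7.87%, and for Ifit1, an IFIT protein that binds foreign RNA ends, 11 of 26 (42.3%) and 8.07%. Classes differ in all of these genes; within endothelial cells Isg15 was found in 9 of 14 cells with Irf7 (64.3%) and 41 of 151 without (27.2%), within erythroid cells in 13 of 21 (61.9%) and 21.4%, and within fibroblasts in 5 of 18 (27.8%) and 7.85%. Within macrophages the shares were closer, 3 of 20 (15%) and 9.2%, and 6 neurons had Irf7, of which 1 had Isg15.

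A few cells held more than most of their class. They were taken by the number of the 16 genes found without thinning, which favours deep cells. Among neurons 532 of 851 had none of the 16 genes, and the highest 3 cells had 113, 42 and 22 UMIs of the 1019 in the class. The first number depends on depth, as 478 neurons had a median of 2603 UMIs. Per 10000 UMIs the neurons with 113 and 42 had 16.1 and 5.35, and a neuron with 22 had 3.69. The 95th percentile of neurons was 2.08. The neuron with 113 UMIs, of 70017 in all, had 29 of Isg15, 22 of Rsad2, 18 of Ifit1 and 16 of Ifit2; Ifit1 was found in 9 neurons in all, with 33 UMIs. A macrophage with 17873 UMIs held 11 of the 16 genes in 38 UMIs, including 9 of Isg15, 7 of Irf7 and 7 of Rtp4. An early myelinating Schwann cell with 23361 UMIs held 29 Isg15, 49 Ifitm3 and 45 Bst2 UMIs. A fibroblast with 24847 held 18 Isg15 and 7 Irf7 UMIs. For the 16 genes this fibroblast had 16.9 UMIs per 10000, while the highest of its class had 51.0.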

How the data were processed

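The authors deposited counts of UMIs per gene and barcode, from 10X Genomics libraries per the labels' protocols. The matrix was written by cellranger 7.0.1 per the file headers, while Cell Ranger 3.1.0, with mm10, is the version in the submitters' processing notes. Barcodes were kept with at least 1000 UMIs, 500 genes and no more than 20% mitochondrial UMIs. The genes and lists were chosen with earlier results of these data known, and the limits of the marker score were settled after marker levels, not those of the 31 genes, were seen.

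Each cell was placed by the mean scaled level (95th percentile as 1) of 18 marker lists, with a score of at least 0.25, a margin of 0.05 and 3 markers detected; satellite glia also needed a UMI of at least 1 of a short set of glial genes. Schwann stages were cut at scores of 0.3 and 0.6 and dividing cells at 0.3. Doublets were kept; an alternative left out the highest 8% of Scrublet scores. UMIs were summed per class, and median log2 ratios used a pseudocount of 1 CPM. Nothing in the labels says whether reads were counted by strand. Every measured gene of the list is accounted for, and genes of other lists were named by largest ratio or highest level. The calling rule was tested on simulated data for vessel cells, where it recovered 94 of 100 genes changed 3-fold among 19540. The simulated counts were Poisson, and the changed genes all had more UMIs than the minimum of the rule. This recovery may therefore not hold for rarer genes or for genes spread unevenly over cells. The alternatives were named clusters (30 components, 2000 variable genes), other limits, UMIs per cell, equal class weights and others. Python 3.11.15, scipy 1.17.1 and scanpy 1.11.5 were used. The molar libraries were left out because the question concerns the ganglion.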

Additional observations from a re-analysis of the deposited data

Results flagged for a closer look

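Barcodes that failed the filters held a signal of the 3 erythroid genes. The 3638 failed barcodes carried 10682575 UMIs, with a median of 969 per barcode, and haemoglobin genes took 73.0% of them. Rsad2 stood at 326 CPM there (exact Poisson interval 315 to 337), Isg20 at 302 CPM (292 to 313) and Isg15 at 49.5 CPM (45.4 to 53.9), against a floor of 0.281 CPM for 3 counts. Ifitm3 and Bst2 stood at 19.2 and 11.0 CPM in the same barcodes. The source of this RNA was not tested.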

How the results depend on the processing

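Of the alternative values, 106 stayed on their side of the limit or within 1.5 times and 13 moved. A further 5 fell short of the limit and 2 passed it. No summed ratio changed direction. A reversal was defined for the summed ratios only, not for counts of genes or shares of cells. As UMIs per cell, 4 genes were called higher in neurons, 1 in satellite glia, 1 in the Schwann lineage and 10 in immune cells, and 9 were called lower in neurons and 19 in the Schwann lineage; the summed ratio was 1.50 for immune cells, 0.780 for neurons and 0.474 for the Schwann lineage (0.747 as CPM). With the other classes weighted equally, 0 genes were called higher in neurons, 0 in satellite glia, 0 in connective tissue and 4 in erythroid cells. The summed ratio was then 1.45 for immune cells and 0.435 for the Schwann lineage. The share of all genes was not counted per cell or with equal weights. The gene counts on those scales therefore describe the setting and cannot be read as results about the list. The immune ratio was 1.98 with named clusters and 1.77 without Ifitm3 and Bst2. The share of cells with 3 or more inducible genes was 0.418% thinned to 2000 UMIs and 5.41% not thinned, and 6.07% of cells had 2 or more. Leaving out cells near a limit, shallow neurons, cells with erythroid markers or haemoglobin totals was added after seeing the data. No paired analysis was possible because there is 1 ganglion library. Depth limits the rare genes: Ifit3 had 7 UMIs, and a gene at 0 in mural cells could stand at up to 3.97 CPM.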
